A study of Sparassis latifolia with 15 samples.

Results

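The regions described here are the 1680 peaks of open chromatin that the dark mycelium of the cauliflower mushroom Sparassis latifolia carried and that were weaker in its primordia, on contigs 1 to 100 of the strain SP-C genome assembly. They were chosen by 2 criteria, membership of the deposited list of peaks lower in primordia than in dark mycelium (P vs. D) and a contig number of at most 100. They make up 87.9% of the 1912 peaks in that list and are part of the 4187 peaks in the 4 deposited lists, which give losses and gains for P vs. D and for light-induced against dark mycelium (L vs. D). All groups were strain SP-C grown in industrial cultivation bags, with no other genotype: primordia (P) at day 42, formed by dark-grown mycelium moved to a daily light and dark cycle, dark-grown mycelium after a short exposure to light (L), labelled day 30, and mycelium kept in the dark to day 28 (D). The study asked which chromatin regions and genes change when light induces primordia. ATAC-seq was made from 2 libraries per group and RNA-seq from 3. The peak lists hold 1 score per peak for the merged libraries, which leaves the spread of ATAC-seq replicates unknown, and lost and gained peaks are set side by side without a test. The libraries are bulk samples, so a lower signal from each cell and a smaller share of cells with an open site cannot be told apart.

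In ATAC-seq a transposase inserts adapters where DNA is not wrapped tightly around nucleosomes, and regions that collect many insertions are called as peaks of open chromatin. Promoters and other regulatory sites of active genes are commonly open, and sites often close when they are no longer used. A primordium is the first dense knot of hyphae from which a mushroom develops, and in many basidiomycetes light is one of the signals that starts it. A peak listed as lower in primordia is below called a lost peak and one listed as higher in primordia a gained peak. The study's fold-change threshold for peaks was low, so a lost peak need not be closed in primordia.

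The peak numbers that the lists carry run along the contigs in a single order shared by the lost and the gained peaks of P vs. D. On contigs 1 to 100 the numbering has 10634 peaks, of which 15.8% were lost and 16.1% (1713 peaks) were gained, and the other 7241 numbers stood in neither list. Numbers absent from both lists were read as peaks that were not called as changed. On contigs above 100, which are short, 232 of 452 numbers (51.3%) were lost and 55 were gained. Lost peaks were therefore 49.5% of the changed peaks on contigs 1 to 100 and 80.8% of those on the short contigs. This near balance on contigs 1 to 100 held with no score minimum. Lost peaks were 29.8% of the changed peaks there at scores of at least 5 and 22.8% at scores of at least 10.

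Lost peaks were small. Their median width was 456 bp, with the middle 80% between 240 and 1433 bp and a range of 194 to 5252 bp. Lost peaks on the short contigs had a median width of 1021.5 bp and gained peaks on contigs 1 to 100 one of 1341 bp. Of the lost peaks on contigs 1 to 100, 405 (24.1%) were under 300 bp and 319 (19.0%) were over 1 kb, while 63.3% of the gained peaks were over 1 kb. Together the lost peaks covered 1159 kb, against 2665 kb for a nearly equal number of gained peaks. The narrowest lost peak (contig 58, 5569 to 5762) was 194 bp. The widest was on contig 89 from 37636 to 42887, with a score of 38.7, followed by contig 26 from 57777 to 62754 (4978 bp), contig 37 from 190687 to 195499 (4813 bp), contig 22 from 87 to 4546 (4460 bp) and contig 13 from 520987 to 525092 (4106 bp). The last 4 of these scored between 10.3 and 84.6, so none of the 5 widest peaks was among the 10 highest scores.

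**Figure D1:**
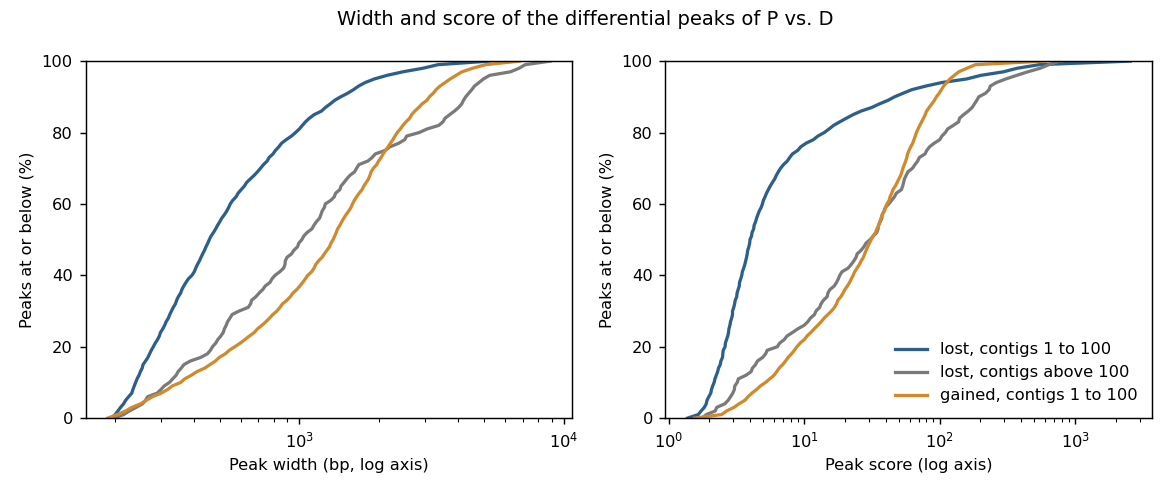
Cumulative percentage of peaks against width in bp (left, log axis) and against the deposited score (right, log axis), for lost peaks on contigs 1 to 100, lost peaks on contigs above 100 and gained peaks on contigs 1 to 100 of P vs. D. The curve of the lost peaks on contigs 1 to 100 lies to the left of the others over most of its course, with medians of 456 bp and 3.99, and it runs furthest to the right at the top of the score axis.

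The score column was likewise uneven, with many low scores and a few high ones. No source used here states the unit of the score. Some peaks carried the same score in the P vs. D and the L vs. D list and others a different one, so what the score measures was not settled and it is given as deposited. A high score is therefore not read here as a large loss in primordia. The median score of the lost peaks was 3.99, against 30.7 for lost peaks on the short contigs and 31.2 for gained peaks. Scores under 5 were held by 1024 lost peaks (61.0%), by 41 lost peaks on the short contigs (17.7%) and by 165 gained peaks (9.63%). The lowest score of a lost peak was 1.38 (contig 14, 401843 to 402115). At the other end, 164 lost peaks (9.76%) and 567 gained peaks (33.1%) scored at least 50, yet the highest lost score, 2555.7, was above the highest gained score of 599.4. Wider lost peaks tended to score higher, with a median width of 886.5 bp at scores of at least 50 and 364.5 bp at scores under 5. Across the 1680 peaks Spearman's rho between width and score was 0.55, and peaks are not independent replicates.

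The 10 lost peaks with the highest scores were spread over 8 contigs. The peak on contig 33 from 27775 to 28740 scored 2555.7 and that on contig 66 from 272080 to 272913 scored 2307.9, about a factor of 2 above all others. Contig 2 carried 3 of the 10, at 1731936 to 1733239 (1157.3), 1233835 to 1235397 (1095.6) and 1014609 to 1016225 (821.7). The others were on contig 44 from 132 to 3158 (1034.4), contig 25 from 623501 to 624269 (1016.6), contig 38 from 8646 to 9663 (989.4), contig 16 from 492930 to 494168 (815.8) and contig 91 from 17669 to 18719 (815.8). With the exception of the 3027 bp peak at the start of contig 44, these were 769 to 1617 bp wide. All 10 were wider than the median lost peak.

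Of these 10 peaks, 6 had an entry with the same coordinates and the same score in the list of peaks lost in L vs. D, a comparison that shares the dark libraries with P vs. D. They were the peaks on contigs 44, 38, 16 and 91 and those on contig 2 at 1233835 and 1014609. The peaks on contigs 33, 66 and 25 and the contig 2 peak at 1731936 overlapped no entry of either L vs. D list, and none of the 5 widest peaks did. The share of all lost peaks with such an entry is not given here. These counts are therefore no result about peaks with high scores or large widths. One lost peak, on contig 39 from 373891 to 374171, overlapped a peak gained in L vs. D (373641 to 374463), and both entries scored 4.53.

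Lost peaks lay on 98 of the 100 contigs, all but 95 and 98, and 50.4% of them were on contigs 1 to 20. More peaks were lost than gained on 43 contigs, fewer on 48, and the numbers were equal and above 0 on 8, while contig 98 had neither. Contig 1 carried 111 lost and 67 gained peaks, and contig 2 carried 107 lost and 101 gained. Over 42.0 Mb, taking each contig to its furthest listed base, there were 4.00 lost and 4.07 gained peaks per 100 kb. Single contigs departed from this balance in both directions. Among the 60 contigs with at least 50 peak numbers between their first and last listed peak, the share of numbers lost had a median of 16.1%, a minimum of 1.79% on contig 60 (1 lost, 11 gained) and a maximum of 31.3% on contig 27 (36 lost, 15 gained). Contig 29 carried 28 lost and 8 gained peaks, whereas contig 36 carried 4 lost and 25 gained and contig 48 carried 5 lost and 22 gained. On contigs 91, 96 and 99 every number between the first and the last listed peak was lost (4, 3 and 6 peaks).

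**Figure D2:**
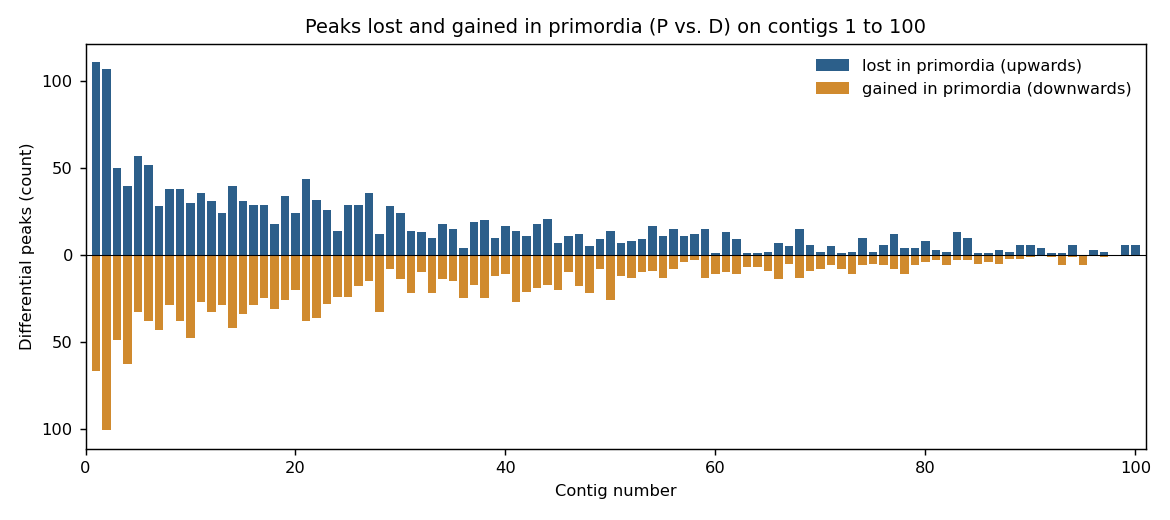
Number of peaks lost (bars upwards) and gained (bars downwards) in primordia on each of contigs 1 to 100. Contig 1 has 111 lost and 67 gained peaks, contigs 27 and 29 have more lost than gained peaks, and contigs 36 and 48 have more gained than lost peaks.

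At the contig limit the lost peaks of contig 99 scored 2.20 to 297.5 and those of contig 100 scored 22.98 to 317.6. Just beyond it, contig 101 held 1 lost peak (19147 to 19446, score 2.92), and contig 102 began with peaks scoring 14.98, 231.3 and 413.2. Peaks on both sides of the limit thus included scores above 200.

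Lost peaks lay near other lost peaks and further from gained ones. The median distance from a lost peak to the nearest other lost peak was 3482 bp, and to the nearest gained peak 16119 bp. Another lost peak lay within 10 kb of 70.6% of the lost peaks and within 1 kb of 29.5%. A gained peak lay within 10 kb of 35.2% of them and within 1 kb of 1.96%. Gained peaks had the same arrangement among themselves, with a median of 2658 bp to the nearest other gained peak and 15642 bp to the nearest lost one. Changed peaks of both kinds were grouped by direction.

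The numbering shows the same arrangement without distances. The next numbered peak after a lost peak was also lost in 691 cases (41.1%), gained in 113 (6.73%) and in neither list in 860 (51.2%). After a gained peak the next was lost in 104 cases (6.07%) and gained in 595 (34.7%). The shares of all numbers on these contigs were 15.8% lost and 16.1% gained.

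Where lost and gained peaks differed was in the length of uninterrupted runs, that is, stretches in which every numbered peak was in the same list. There were 51 runs of at least 5 lost peaks, holding 376 lost peaks (22.4%), and 19 such runs of gained peaks, holding 103 (6.01%). Runs of at least 8 numbered 13 for lost and 1 for gained peaks. The longest run had 26 lost peaks, and the longest gained run had 8. The 7 runs of at least 10 peaks, all of them lost, held 113 peaks over 470 kb. Peaks without a neighbour of their own kind in the numbering numbered 685 among the lost (40.8%) and 757 among the gained (44.2%). The use of consecutive numbers was chosen after the lists had been seen, and these counts carry no test. Runs were not recounted at a score minimum, while 61.0% of the lost and 9.63% of the gained peaks scored under 5. Whether the difference in run length holds among higher scores is therefore unknown.

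**Figure D3:**
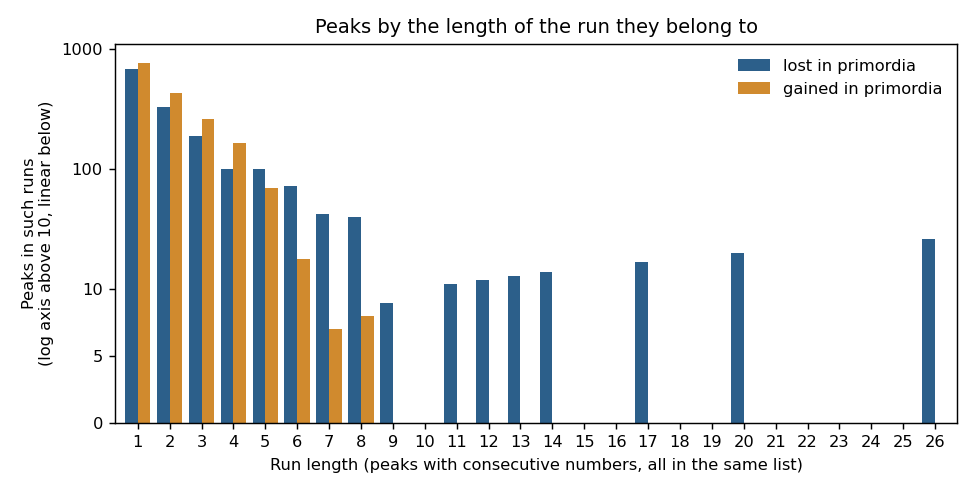
Number of peaks (log axis above 10, linear below) in runs of each length, for lost peaks and gained peaks on contigs 1 to 100, where a run is a stretch of consecutive peak numbers that are all in the same list. Gained peaks end at runs of 8, while lost peaks go on to runs of 11, 12, 13, 14, 17, 20 and 26.

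The longest run lay on contig 27 from 250666 to 419649. Its 26 peaks were scattered over 169 kb, of which they covered 6.33%, and 25 of them scored under 5, with a median of 2.58. It accounted for most of the 36 lost peaks of that contig. The run on contig 22 from 212168 to 269915 was denser, with 20 peaks covering 27.1% of 57.8 kb and a median score of 3.81. The run on contig 29 from 350479 to 443183 held 17 peaks, most of them with low scores (median 3.58), around a 3419 bp peak at 395918 to 399336 that scored 109.6. These 3 runs were made up mainly of peaks scoring under 5.

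Contig 21 held a pair of runs separated by a single number in neither list. The first, from 222915 to 274781, had 14 peaks and the second, from 289502 to 327086, had 12. In the first, 4 peaks within 222915 to 227889 scored 38.8 to 71.3, and the 6 peaks from 265228 onwards scored 2.28 to 3.32. In the second the scores reached 160.2, with a median of 3.86. The 100 kb window of contig 21 from 200001 to 300000 held 21 lost peaks and no gained one, the most lost peaks of any such window. The next windows were contig 22 from 200001 to 300000, with 20 lost and 4 gained peaks, and contig 2 from 1700001 to 1800000, with 17 lost and 2 gained, among them the peak scoring 1157.3.

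Higher scores were found in the run on contig 68 from 106314 to 138744. Its 13 peaks had a median score of 35.7, the peak at 134508 to 136157 scored 269.9, and only 2 scored under 5. This run reached the last listed peak of contig 68. The run on contig 2 from 1355298 to 1383975 had 11 peaks that scored 2.29 to 13.3. A shorter run on contig 16 from 492930 to 585595 had 8 peaks, none of them under 5, and a median of 241.3. Runs of lost peaks therefore included both low and high scores, and over the 7 longest the share scoring under 5 was 61.9%, close to the 61.0% of all lost peaks.

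**Figure D4:**
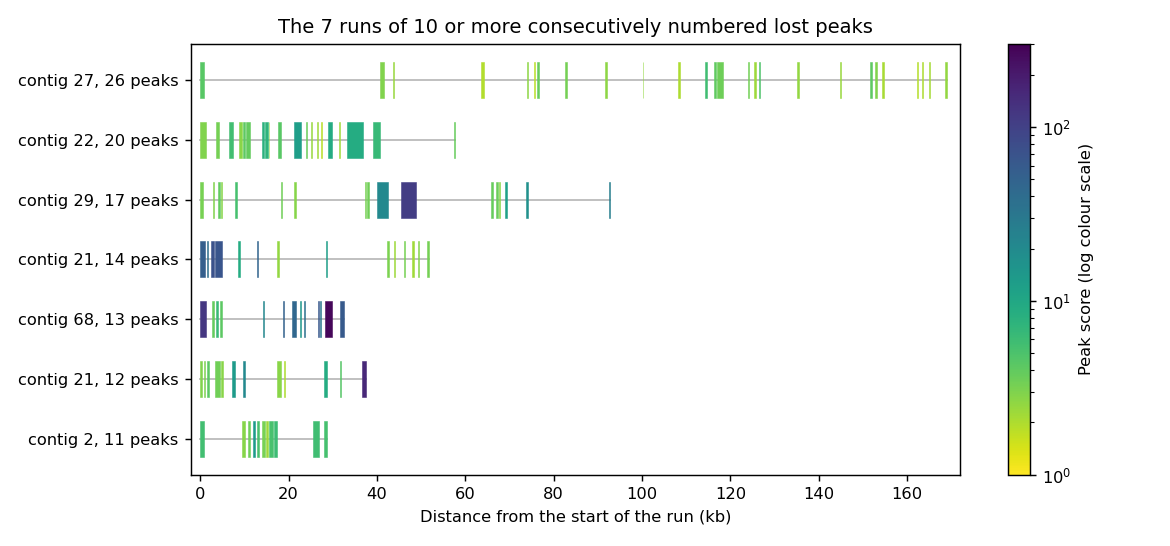
The 7 runs of at least 10 lost peaks, each drawn from its own first base (x axis, kb), with peaks as boxes of their true width coloured by score (log scale). The run on contig 27 extends over 169 kb with low scores, while that on contig 68 is 32.4 kb long and holds the peak scoring 269.9.

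When grouped by distance in place of number, with gaps of at most 10 kb, lost peaks formed 52 runs of at least 5 with 357 members. The longest of these lay inside the runs on contig 27 (314199 to 419649, 23 peaks) and contig 22 (212168 to 252743, 19 peaks), followed by contig 2 from 1701839 to 1757201 with 16.

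Of the 13 genes that the study listed as lower in expression with a lost peak (D1 to D13), 10 were assigned to 14 of the lost peaks on contigs 1 to 100. The study assigned these peaks to a promoter for 5 genes, an exon for 2, a transcription termination site (TTS) for 2 and intergenic sequence for 1. The listed peaks of D1, D2 and D3, on contigs 1, 2 and 11, matched entries of the L vs. D list by number or score. They are not counted among the 14. Whether peaks lost in P vs. D overlap them is not given here, so D1, D2 and D3 may also have such a peak. The study selected these genes for lower RNA and a lost peak in both P vs. D and L vs. D, on the same libraries, so neither the direction of their RNA nor a lost peak in either comparison is independent evidence. RNA levels are in CPM (counts scaled to a common library total) scaled by TMM over the 9 libraries, which had 20798190 to 27706995 counts in genes. Values are given for each library in the order of its number, and comparisons between genes are not made, since the levels are not per length. The study listed the gene of the hydrophobin SC4, a fruiting body protein, as higher on these same libraries. It is therefore no independent check of the stage labels. The SC4 gene had 63.1, 35.2 and 231 CPM in dark mycelium and 368, 5105 and 2293 CPM in light-induced mycelium. In primordia it had 1686, 14884 and 1673 CPM. Primordia were above every dark library but overlapped the light libraries, and edgeR did not call the gene in P vs. D (adjusted p of 0.0615), so it does not tell primordia from light-induced mycelium.

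All 10 genes were below every dark library in every primordia library, an arrangement found for 12.9% of 10701 genes. The study also measured its selected genes by qRT-PCR, which does not rely on sequencing. It reported patterns similar to the sequencing for most of them, but D5, D8, D9 and D13 were among the exceptions. The qRT-PCR values were not used here, so how these genes departed was not assessed. By edgeR's quasi-likelihood test with Benjamini-Hochberg adjustment over 10606 genes, 4 of the 10 fell in primordia, where 1.97% of all genes were called lower and 1.33% higher. At an unadjusted p under 0.05, 9 of the 10 were lower, where 2059 of the 10606 genes passed in either direction, and DESeq2 called 8 of 10, against 5.87% of all genes. Without primordia replicate 1 edgeR called 2 of the 10. The median log2 fold change of the 10 was -2.75, and that of all genes was 0.07. Of the other 3 D genes 2 were called lower, and of the study's 17 genes with gained peaks (U1 to U17) 11 were called higher.

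Among genes of amino acid and one-carbon metabolism, D11 fell. D11 (Gglean010344) encodes the cobalamin-independent methionine synthase, which makes methionine by methylating homocysteine. Its peak lay at a TTS on contig 7 from 185567 to 187172 (score 17.3). D11 had 1532, 681 and 461 CPM in primordia, against 16692, 5212 and 14701 CPM in dark mycelium, a log2 fold change of -3.76 ± 0.78 (SE) and an edgeR adjusted p of 0.0471. The groups did not overlap, but leaving out each of the 6 libraries in turn lost the call every time, with adjusted p of up to 0.175 over the alternatives. D13 (Gglean011958), annotated as an uncharacterized trans-sulfuration enzyme, belongs to a family that interconverts cysteine and homocysteine. It was assigned 5 intergenic peaks on contig 84 between 118486 and 144910, with scores of 2.53, 2.79, 3.06, 68.6 and 317.6. D13 had 16, 17.2 and 10.6 CPM in primordia and 26.7, 17.8 and 22.1 CPM in dark mycelium, a log2 fold change of -0.59 ± 0.29 (SE) that was not called (edgeR adjusted p of 0.325). The study assigned these peaks to D13 as the nearest promoter. All lay kilobases upstream of its start, and those scoring 68.6 and 317.6 were the furthest away. D13 was thus assigned the most lost peaks of the 10 genes, none of them close to it, and had the smallest difference in RNA.

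Of 4 oxidoreductases, D10 was called. D10 (Gglean009487) encodes a lactate 2-monooxygenase, an enzyme that oxidises lactate, with a 3538 bp exon peak on contig 6 from 599486 to 603023 (score 15.5). D10 had 6.33, 9.37 and 15.5 CPM in primordia, against 115, 101 and 80.5 CPM in dark mycelium. Its log2 fold change was -3.24 ± 0.37 (SE) with an edgeR adjusted p of 0.00832, and the call held in all 13 alternatives. D4 (Gglean001940), a phenol 2-monooxygenase that hydroxylates phenols, had a TTS peak on contig 13 from 286217 to 287493 (score 6.07). D4 had 1162, 550 and 114 CPM in primordia and 8361, 2183 and 5195 CPM in dark mycelium, a log2 fold change of -3.09 ± 0.92 (SE) that was not called (edgeR adjusted p of 0.122). The wide spread in both groups goes with its large SE.

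D9 (Gglean009036), an aldo-keto reductase, a class that reduces carbonyl compounds with NADPH, had a promoter peak on contig 48 from 210512 to 212643 (score 15.3). D9 had 1265, 105 and 693 CPM in primordia and 5754, 3136 and 2086 CPM in dark mycelium, a log2 fold change of -2.41 ± 0.88 (SE), not called (edgeR adjusted p of 0.19). D12 (Gglean011299), annotated as an O-methylsterigmatocystin oxidoreductase, a name taken from an Aspergillus cytochrome P450, had a promoter peak on contig 74 from 74634 to 76372 (score 19.8). D12 had 10.9, 7.19 and 16.1 CPM in primordia and 18.2, 28.4 and 34 CPM in dark mycelium, a log2 fold change of -1.23 ± 0.36 (SE), not called (edgeR adjusted p of 0.121).

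The transporter and the hydrolase both fell. D6 (Gglean005508), an uncharacterized transporter, had a promoter peak on contig 27 from 88450 to 89940 (score 9.21), outside the long run of that contig. D6 had 9.45, 12 and 14.9 CPM in primordia, against 257, 103 and 88.6 CPM in dark mycelium, a log2 fold change of -3.62 ± 0.48 (SE) and an edgeR adjusted p of 0.0104. Without primordia replicate 1 it was no longer called, and its adjusted p over the alternatives went up to 0.0745. D7 (Gglean006573), an alpha/beta hydrolase of a large family of esterases and lipases, had a promoter peak on contig 31 from 70603 to 71874 (score 5.41). D7 had 1.58, 2.94 and 3.02 CPM in primordia, against 31, 26.2 and 14.6 CPM in dark mycelium, a log2 fold change of -3.23 ± 0.41 (SE) and an edgeR adjusted p of 0.0101, which went up to 0.067 over the alternatives, and the call held with each library left out in turn. All 3 primordia libraries were below 15 CPM for both genes.

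Neither the glycolysis gene nor the meiosis gene was called. D5 (Gglean003676), a cofactor-independent phosphoglycerate mutase of glycolysis, had a promoter peak on contig 20 from 238956 to 239533 (score 6.87). D5 had 286, 89.5 and 268 CPM in primordia and 641, 344 and 433 CPM in dark mycelium, a log2 fold change of -1.14 ± 0.48 (SE) and an edgeR adjusted p of 0.251. D8 (Gglean008033) is annotated as the meiosis-specific protein hop1, which in budding yeast is part of the axis of meiotic chromosomes, and had an exon peak on contig 5 from 339945 to 341946 (score 21.1). D8 had 2.83, 2.4 and 5.01 CPM in primordia and 10.8, 6.95 and 9.52 CPM in dark mycelium, a log2 fold change of -1.4 ± 0.37 (SE) and an edgeR adjusted p of 0.0921.

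**Figure D5:**
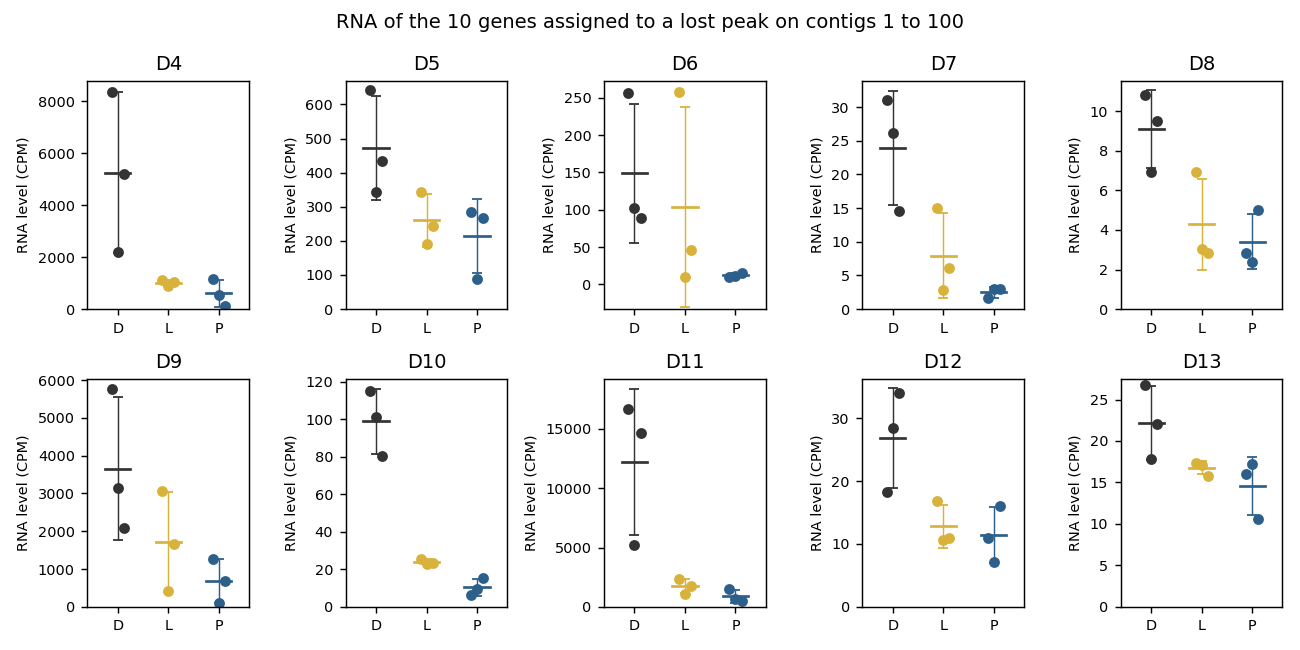
RNA level in CPM of the 10 genes assigned to lost peaks on contigs 1 to 100 in dark mycelium (D), light-induced mycelium (L) and primordia (P), with 1 point per library, a bar at the mean and whiskers of 1 SD (n = 3 each). Every primordia point lies below every dark point in all 10 panels, while light points of D6, D7 and D9 overlap the dark points.

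By the study's selection all 10 genes also had an entry in the list of peaks lost in L vs. D, which shares the dark libraries with P vs. D, so that count is no result. The score was the same in both lists for D4, D5, D6, D7, D11 and D12, and it was higher in P vs. D for D8 (21.1, against 12.5), D9 (15.3, against 15.04) and D10 (15.5, against 10.3). Of the 5 peaks of D13 only the 307 bp peak at 136806 to 137112, with a score of 2.53 in both lists, had such an entry.

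None of the 10 genes was called in L vs. D. edgeR called 0 of 10627 genes (0%) lower and 0 (0%) higher, and 0 of the 10 (1280 had an unadjusted p under 0.05), and 7 of the 10 genes were at an unadjusted p under 0.05. DESeq2 called 206 genes lower (1.85%), 4 of the 10 among them. The study, with DESeq2 and the same thresholds, reported more genes lower and more higher in L vs. D than either method gave here. The median log2 fold change of the 10 was -1.09. D10 had 25.5, 22.7 and 23.2 CPM in light-induced mycelium, against 115, 101 and 80.5 CPM in dark mycelium, a log2 fold change of -2.05 ± 0.18 (SE) and an edgeR adjusted p of 0.0546, which ranged from 8.4e-18 to 0.314 over the alternatives. D11 had 2306, 1113 and 1738 CPM in light-induced mycelium, against 16692, 5212 and 14701 CPM in dark mycelium, and D4 had 1120, 894 and 1039 CPM, against 8361, 2183 and 5195 CPM. In all 3 of these genes the light libraries were below every dark library. D6 was the most uneven, with 258, 10 and 45.7 CPM in light-induced mycelium, where the first library was as high as the highest dark library. The light libraries of D7 had 15, 2.77 and 6.03 CPM and those of D9 had 3071, 420 and 1658 CPM, and both overlapped the dark libraries. The other genes had light values of 343, 191 and 245 CPM (D5), 6.93, 3.05 and 2.86 CPM (D8), 16.8, 10.7 and 11 CPM (D12) and 17.3, 17.1 and 15.8 CPM (D13), all below every dark library, an arrangement found for 9.47% of genes. The primordia and light libraries did not overlap for D10 alone, and the difference between them was not tested.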

How the data were processed

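ATAC-seq and RNA-seq libraries of dark mycelium, light-induced mycelium and primordia were used. Per the paper's methods, the authors trimmed reads with cutadapt, mapped ATAC-seq reads to the SP-C genome with BWA 0.7.10, merged samples within groups and called peaks with MACS2 2.1.1. The deposited peak lists hold intervals, a peak number and a score, for which no source used here states a unit. The deposited counts per gene were made by the authors with STAR and HTSeq 0.6.1. The tables also hold the authors' fold changes and p-values, and 12 columns of normalised values, none of which was used.

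Peaks were measured in Python 3.11.15, with starts given 1-based. Counts were tested with edgeR 4.0.16 (filterByExpr, TMM, quasi-likelihood) in R 4.3.3, and DESeq2 1.42.0 was an alternative. Calls needed an adjusted p up to 0.05 and a fold above 1.2. SEs were derived from the log2 fold change and the F statistic. Named peaks are the 10 highest scores, the 5 widest, those of dense windows and long runs, those of D genes and those at the contig limit. Other peaks named were chosen after their values were seen. The members and lists were chosen with earlier results of these data known. Replicates are called biological by the study. No genome sequence of SP-C was used here, so no sequence is shown. The edgeR steps were tested on simulated data.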

Additional observations from a re-analysis of the deposited data

How the results depend on the processing

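With scores of at least 5 there were 656 lost peaks (median width 826 bp, median score 15.1, 1.56 per 100 kb), 29.8% of listed peaks, with medians of 10915 bp to the nearest other lost peak (47.1% within 10 kb) and 21194 bp to the nearest gained peak (28.0%). With scores of at least 10 there were 395 (842 bp, 36.8, 0.94 per 100 kb), 22.8% of listed peaks, with medians of 11928 bp (44.8%) and 29700 bp (21.5%). With widths of at least 300 bp the medians were 577 bp and 4.56, 44.5% of listed peaks were lost, and the nearest other lost peak was at 5216 bp (61.9%). A lost peak lay within 1 kb of 29.5% and within 50 kb of 95.6% of lost peaks, and a gained peak of 1.96% and 86.5%. Between centres a gained peak lay within 10 kb of 29.9%. Runs of at least 5 numbered 26 with gaps up to 5 kb and 88 up to 20 kb. Outside runs of 10 or more, an alternative chosen after seeing the data, 37.3% of lost peaks were followed by another. Contigs up to 50 or 200 gave values close to the reported ones.

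In P vs. D DESeq2 called 522 genes higher and 641 lower, 8 of the 10 genes among them, and all 9 libraries in a single fit gave 221 higher. With a replicate block there were 34 higher and 55 lower, and 1 of the 10. No source used here states whether equal replicate numbers mark samples of the same culture. Deviations of same-numbered primordia and dark libraries correlated at 0.02, -0.39 and -0.28. Those of light and dark libraries correlated at 0.27, -0.33 and -0.2. With 3 libraries per group these values cannot decide whether the samples were paired. Leaving out each library gave 20 to 404 higher and 53 to 323 lower, and 2 to 4 of the 10. Dark replicate 1 left out gave the fewest calls (20 and 53), and primordia replicate 2 left out the most (404 and 323). In L vs. D DESeq2 called 198 higher and 206 lower, 4 of the 10 among them. In both comparisons the study's own DESeq2 totals, at the same thresholds, were larger in each direction than those found here. Library totals gave 2 and 1 (1 of the 10), no filter 1 and 1 (1 of the 10), and all libraries in a single fit 2 higher. Leaving out each library gave 0 to 12 higher, 0 to 3 lower and 0 to 1 of the 10, the highest without light replicate 1. The log2 fold change of D6 in L vs. D ranged from -2.42 to 0.13 with each library left out, being 0.13 without dark replicate 1 and 0.02 without light replicate 2, the only reversals among the named genes. Library totals moved the median log2 fold change of all genes to 0.17 in P vs. D and 0.23 in L vs. D. Causes of these shifts were not tested. The ATAC-seq depth behind each peak is unknown, which limits what a low score can show. Per library, the study reported a lower mapped rate for both primordia ATAC-seq libraries than for both dark ones. It also reported fewer mapped reads for dark replicate 2 than for dark replicate 1. The effect of these differences on the peak lists was not tested.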

Other observations

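Scores repeated among the lost peaks. A score identical in all deposited digits to that of another peak of the same list was held by 636 of the 1680 lost peaks (37.9%) and by 71 of the gained peaks (4.14%). Of these 636, 415 scored under 5, a range that held 61.0% of the lost and 9.63% of the gained peaks. Among lost peaks scoring at least 50, 30 of 164 shared 14 values. A score of 815.8 was held by the peak of contig 16 at 492930 to 494168 and by that of contig 91 at 17669 to 18719. Likewise 317.6 was held by the peak of contig 84 at 143340 to 144910 and by that of contig 100 at 27340 to 28795. Of the lost peaks, 35 began within 10 kb of a contig start, 11 of them with a score of at least 50, against 33 gained peaks, 5 of them with such a score.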
